A study of Mus musculus with 18 samples.

Results

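Differentiation of wild type mouse neurospheres was followed by setting 3 arrays of cells at day 4 of differentiation against 3 arrays of the same kind of culture at day 0, when the cells still grew as neurospheres. These 6 arrays were chosen by their titles from 18 in the series, which also holds Pcdh19 knockout cultures and mosaic cultures that mix wild type and knockout cells, each with 3 arrays at day 4 and 3 at day 0. Neurospheres are free-floating clusters of neural stem and progenitor cells, and Pcdh19 is an X-linked gene for an adhesion protein of the protocadherin family. Each array measured total RNA with a biotin label on an Affymetrix mouse gene array. The series' design text calls the replicates technical, so the p-values here measure the spread between these samples and not between animals. The labels give the cultures as female and name no strain, age, brain region or differentiation medium. Values are the authors' normalized signals on a log2 scale, so that 1 unit is a 2-fold difference.

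Of 22180 genes with a probe set of 1 symbol, 19016 passed a filter on dim signal and were tested. Pearson's r across probe sets was 0.982 to 0.983 among the day 4 arrays, 0.986 among the day 0 arrays and 0.955 to 0.964 between days. Pcdh19 itself had signals of 6.90, 6.98 and 6.81 at day 4, against 6.85, 6.83 and 6.66 at day 0, and it did not pass the test. The labelled cell type was checked on genes of neural progenitors. Sox2 averaged 10.73 at day 4 and 10.92 at day 0, Vim 11.70 at day 4 and 12.65 at day 0 and Fabp7 13.26 at day 4 and 13.26 at day 0, all bright on the array. Nes, Prom1 and Msi1 were also chosen for this check and are given with the stem cell genes below. Nes fell, Prom1 rose and Msi1 did not pass. The sex label was not borne out by the array. The probe set of Xist, the RNA of the inactive X chromosome in female cells, lay at 2.85 to 3.40 at day 4 and 3.27 to 3.45 at day 0, under the lower quartile of every wild type array. The Y-linked genes Kdm5d, Uty and Eif2s3y lay between 6.85 and 8.51 at day 4 and between 7.78 and 8.93 at day 0. Sry and Usp9y, also Y-linked, were dim, at 4.58 to 4.83 and 2.71 to 3.07 at day 4 and at 4.56 to 4.74 and 2.72 to 2.95 at day 0. Over all 18 arrays Xist ranged over 2.68 to 3.98, and whether X-linked relatives of the Y genes gave the signal was not tested.

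Neural stem cells kept in growth factors divide, and on withdrawal of those factors they leave the cell cycle and give rise to oligodendrocytes, astrocytes and neurons. Oligodendrocytes wrap axons in myelin, a stack of membrane rich in cholesterol and galactolipid and held together by a small set of proteins. Notch signalling, with its HES and HEY repressors, holds progenitors undifferentiated, while growth factor receptors acting through the ERK kinases switch on immediate early genes such as Fos and Egr1 within minutes.

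A total of 6386 genes, 33.6% of those tested, differed between day 4 and day 0 at an adjusted p under 0.05 (limma, Benjamini-Hochberg adjustment over all genes). Of these, 3280 (17.2% of genes) were higher and 3106 (16.3%) lower at day 4, and 51.4% of the calls were thus higher. After quantile normalization that share was 61.5%, with 4091 genes higher and 2556 lower. Changes of at least 2-fold were found in 793 genes (4.17%), 263 of them higher (1.38%) and 530 lower (2.79%). The day 4 and day 0 arrays did not overlap for 9304 genes (48.9%). The median change over all genes tested was 0.09 on the log2 scale, and the median size of a called change was 0.50.

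The change of a gene went with its brightness in the wild type. The 9497 genes with a mean signal under 6 had a median log2 fold change of 0.17, and the 9519 brighter genes one of -0.05. In knockout and mosaic cultures the same dim genes had medians of 0.02 and 0.00. The median signal of these dim genes was 4.84, 4.75 and 4.76 on the wild type day 4 arrays, above all 15 other arrays of the series, and 4.64, 4.60 and 4.62 on the wild type day 0 arrays. Of the dim genes 1452 were called higher and 500 lower, and without day 4 replicate 1 931 were higher. Quantile normalization kept the shift of the dim genes, with a median of 0.17 and 1497 higher and 493 lower. With a common array median it was 0.14, with 1135 and 549. With cyclic loess normalization, an alternative chosen after this pattern was seen, the median was 0.07, and 771 were called higher and 652 lower.

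**Figure D1:**
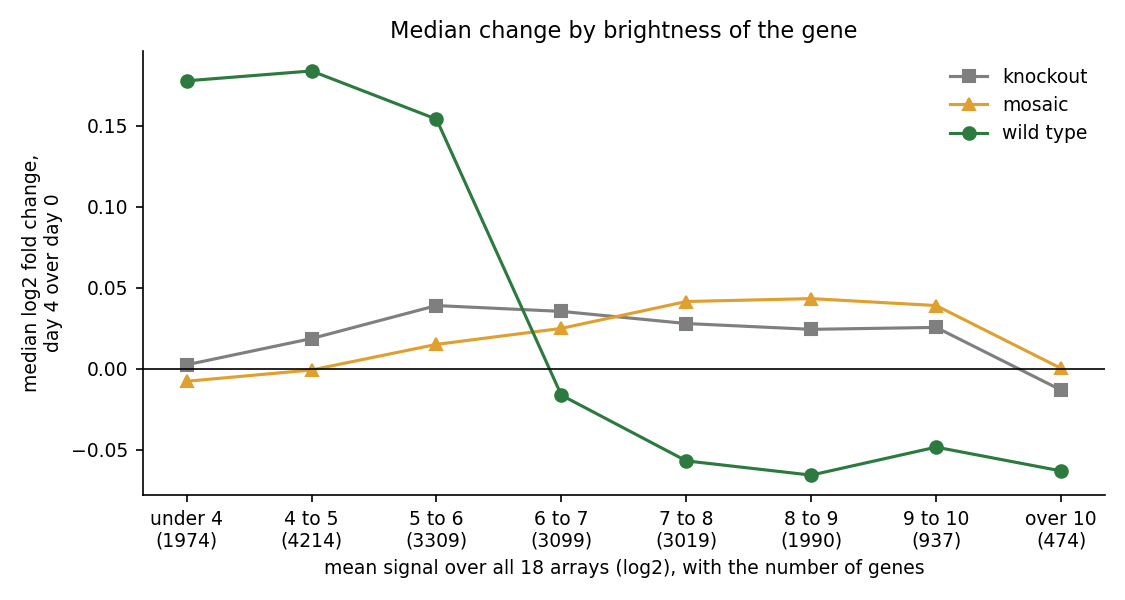
Median log2 fold change of day 4 over day 0 (vertical axis) for genes binned by their mean log2 signal over 18 arrays (horizontal axis, number of genes under each bin), with 1 line for each genotype. The wild type line lies at 0.18 in the bins under 4 and from 4 to 5 and near -0.06 in bins above 7, while both other lines stay within 0.05 of 0.

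Genes of the myelin sheath had the highest median change of the 55 gene lists examined. Of 23 genes for proteins of the myelin sheath 19 were higher at day 4 and 1 lower, with 12 changed at least 2-fold and a median log2 fold change of 1.01. Mobp, a small basic protein of compact myelin, had signals of 10.64, 10.36 and 9.72 at day 4, against 5.47, 5.23 and 5.09 at day 0. It rose by 4.97 ± 0.23 (SE, n = 3 per day), which is 31.4-fold. Mag, the glycoprotein of the innermost myelin layer facing the axon, had signals of 10.52, 10.22 and 9.77 at day 4, against 5.49, 5.39 and 5.0003 at day 0, and rose by 4.88 ± 0.35 (29.3-fold). For both genes the lowest day 4 array stood 4 units or more above the highest day 0 array. Mal, a proteolipid that sorts cargo to myelin membrane, had 9.21, 9.01 and 8.57 at day 4, against 5.36, 4.87 and 4.93 at day 0 (14.7-fold higher). Ermn, an actin-binding protein of oligodendrocytes, had 7.79, 7.39 and 7.03 at day 4, against 3.37, 3.74 and 3.84 at day 0 and lay at day 0 near the floor of the array. Cldn11, the claudin that seals the layers of myelin, had 11.20, 11.01 and 10.62 at day 4, against 7.45, 7.86 and 7.83 at day 0, a rise of 3.23 in a gene that was well detected on both days. Mbp, the basic protein that zips the cytoplasmic faces together, had 9.25, 9.06 and 9.20 at day 4, against 6.07, 6.26 and 5.95 at day 0 (8.45-fold higher). These 6 had adjusted p between 3.12e-10 for Mobp and 4.78e-07 for Ermn. Mog, found on the outermost layer, followed with 2.61, Nfasc, the adhesion molecule of the paranode and axon, with 2.69, and Tspan2 with 2.07. The other called members rose by 0.32 to 1.28, with Cnp, an enzyme of non-compact myelin, at 1.28. Cd9, a tetraspanin, fell by 0.33, although its dimmer probe set gave 0.09. Klk6 (4.21 at day 4 and 4.01 at day 0) and Gjb1 (5.43 at day 4 and 5.09 at day 0), genes of mature oligodendrocytes, did not pass.

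**Figure D2:**
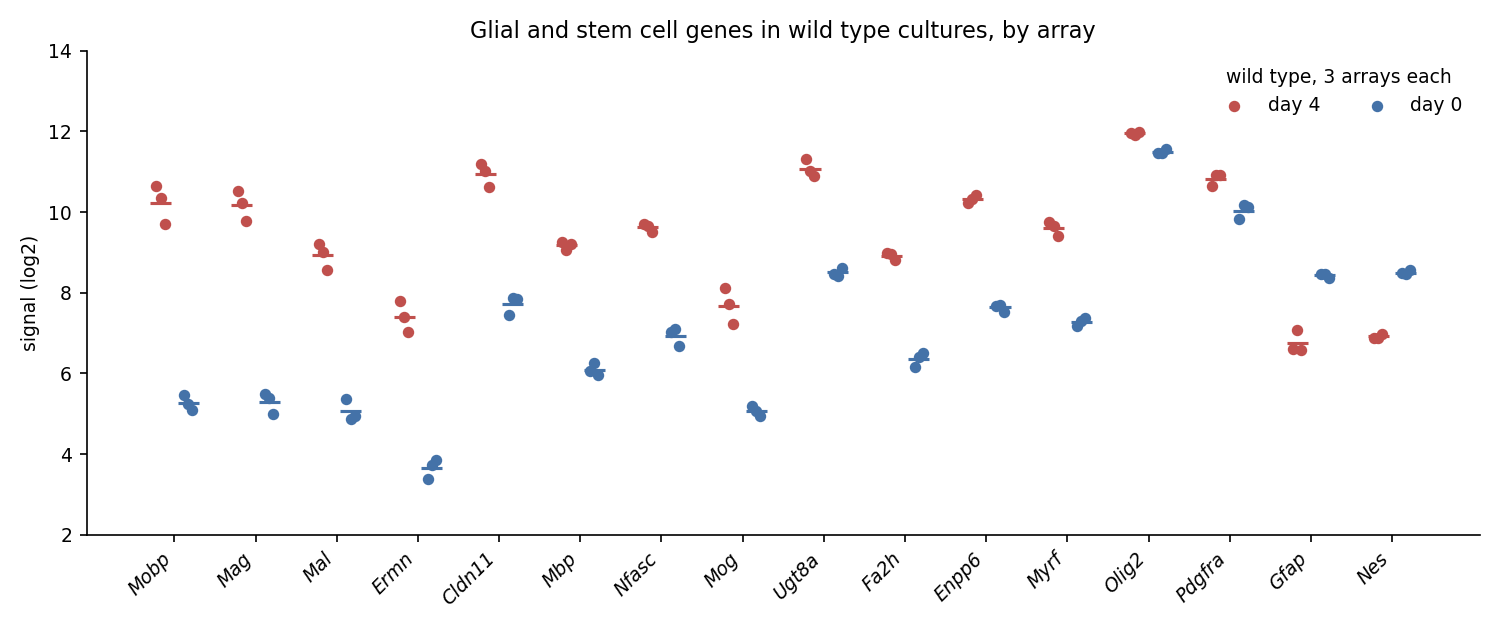
Log2 signal (vertical axis) of 16 genes of glia and stem cells on the 3 day 4 arrays (left in each pair) and the 3 day 0 arrays (right) of wild type cultures, with bars at the means. Arrays of the 2 days are far apart for the myelin genes Mobp to Mog, while Olig2 and Pdgfra move by under 1 unit and Gfap and Nes lie lower at day 4.

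Enzymes of myelin lipids were higher more often than lower. Among 22 genes listed for galactolipid and very long chain lipid metabolism 12 rose and 2 fell, with a median of 0.30. Enpp6, a choline phosphodiesterase of newly forming oligodendrocytes, had signals of 10.23, 10.32 and 10.43 at day 4, against 7.67, 7.71 and 7.53 at day 0 (6.47-fold higher). Ugt8a, which makes galactosylceramide, had 11.30, 11.01 and 10.90 at day 4, against 8.47, 8.42 and 8.61 at day 0 (5.93-fold higher), and Fa2h, which hydroxylates the fatty acid of that lipid, had 8.99, 8.96 and 8.81 at day 4, against 6.16, 6.40 and 6.51 at day 0 (5.92-fold higher). No day 4 array of these enzymes fell within the day 0 values. Gal3st1, which adds the sulfate of sulfatide, rose by 1.48, the elongases Elovl7 and Elovl1 by 1.96 and 1.24, and the glycolipid carrier Gltp by 1.74. Plp2, on the list though a membrane protein and not a lipid enzyme, changed by -1.64, and the degrading enzyme Galc by -0.32.

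Of 19 transcription factors of the oligodendrocyte lineage 9 rose and 1 fell (median 0.33). Myrf, the factor that turns on myelin genes, had signals of 9.74, 9.66 and 9.41 at day 4, against 7.18, 7.30 and 7.37 at day 0 (4.99-fold higher). St18, Nkx6-2, Zfp488 and Sox10 rose by 1.44, 1.42, 1.18 and 0.75. Olig1 and Olig2, which specify the lineage, were already bright and rose by less, with Olig2 at 11.97, 11.90 and 11.997 at day 4, against 11.46, 11.46 and 11.56 at day 0. Chd7, a chromatin remodeller, fell by 0.65.

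Genes of earlier stages were also higher more often than lower. Of 24 genes of progenitors and premyelinating cells 13 were higher and 2 lower (median 0.57). Besides Enpp6 these were led by Tmem108 (1.79), Sirt2 (1.34), Sema5a (1.27), the secreted C1ql1 (1.24) and Gpr17 (1.18), a receptor of cells committed to differentiate. Pdgfra, the receptor that marks progenitors, had signals of 10.65, 10.91 and 10.91 at day 4, against 9.82, 10.18 and 10.11 at day 0, and Ednrb, an endothelin receptor, fell by 0.66. The proteoglycan gene Cspg4, which marks the same progenitors, averaged 6.57 at day 4 and 6.90 at day 0 and did not pass. Among 27 genes of the oligodendrocyte cytoskeleton and traffic 20 rose and 4 fell (median 0.74). Tubb4a, the main beta tubulin of these cells, had 11.45, 11.46 and 11.36 at day 4, against 8.59, 8.74 and 8.52 at day 0 (6.99-fold higher). Sema4d, a semaphorin of myelinating cells, rose by 2.31, the tubulin-binding Tppp by 1.77, the small chaperone Cryab by 1.71 and Adamts4 by 1.70. Anln, an actin-binding protein of myelin and also of dividing cells, was the strongest exception and fell by 2.06.

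Astrocyte genes split. Of 39, 22 rose and 8 fell (median 0.46), against 17.2% higher and 16.3% lower of all genes. Slc39a12, a zinc importer of astrocytes, had signals of 8.42, 8.49 and 8.56 at day 4, against 5.77, 5.56 and 5.65 at day 0 (7.1-fold higher). The secreted chaperone Clu had 9.93, 10.0002 and 9.97 at day 4, against 7.92, 7.98 and 7.64 at day 0 (4.35-fold higher), and the calcium-binding S100b had 7.86, 7.87 and 7.76 at day 4, against 5.79, 5.95 and 6.13 at day 0 (3.66-fold higher). No array of one day lay among those of the other for these genes. Gpc5, a glypican, rose by 1.92, Glul, the glutamine synthetase that clears glutamate, by 1.59, and Gja1, the main gap junction protein of astrocytes, by 1.13. Going the other way, Gfap, the intermediate filament most used to mark astrocytes, had 6.60, 7.07 and 6.59 at day 4, against 8.47, 8.47 and 8.36 at day 0, a fall of 1.68 ± 0.27 (SE). The BMP antagonist Chrdl1 changed by -1.54 and the transcription factor Nfib by -1.01. Sox9 (10.32 at day 4 and 10.21 at day 0) did not pass.

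Genes of young neurons were higher more often than lower at day 4. Among 34 genes of the neuronal cytoskeleton and of neuronal RNA-binding proteins 20 rose and 2 fell (median 0.58). The RNA-binding Elavl3 had signals of 9.91, 9.92 and 9.93 at day 4, against 7.70, 7.96 and 7.87 at day 0, and Dcx, a microtubule protein of migrating neurons, had 9.38, 9.31 and 9.41 at day 4, against 7.66, 7.82 and 7.40 at day 0. Both were higher on every day 4 array, by 4.21-fold and 3.34-fold. Mllt11 rose by 1.66, the microtubule-associated Map1b by 1.53, the kinesin Kif5c by 1.26 and the filament protein Ina by 1.13. Tagln3 and Elavl4 changed by -0.58 and -0.51. Map2 (11.13 at day 4 and 11.14 at day 0) and Gap43 (7.88 at day 4 and 8.21 at day 0), common neuronal markers, did not pass. Of 27 genes of GABAergic interneurons 14 were higher, against 8 with cyclic loess normalization, 8 without day 0 replicate 3 and 9 without day 4 replicate 1. Dlx5, a homeobox factor of interneuron precursors, had 5.47, 4.84 and 5.60 at day 4, against 4.28, 4.32 and 4.24 at day 0, and Gad1, which makes GABA, had 5.89, 5.89 and 5.83 at day 4, against 5.09, 5.04 and 5.27 at day 0. Calb2 (1.06), Reln (0.81) and Erbb4 (0.70) were higher as well, and Meis2 fell by 0.89. Of 21 genes of excitatory neurons 5 rose and 3 fell, and with cyclic loess 2 rose and 2 fell. Without 1 of the 6 wild type arrays at a time, 1 to 4 of them rose. Eomes, of their precursors, averaged 4.63 at day 4 and 4.39 at day 0 and did not pass.

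Synaptic genes were mixed. Of 32 genes of synaptic vesicles and release 14 rose and 4 fell (median 0.26). Syt1, the calcium sensor of release, had signals of 8.09, 8.49 and 8.11 at day 4, against 5.55, 6.19 and 5.60 at day 0 (5.45-fold higher), and the vesicle glycoprotein Sv2a rose by 1.42, Snap91 by 1.06 and Rab3a by 0.995. Its relative Sv2c changed by -1.44 and Amph by -1.21, while Snap25 (7.40 at day 4 and 7.17 at day 0) did not pass. Of 12 genes of GABA-A receptors 4 rose and 1 fell. The subunit gene Gabra4 had 5.49, 6.22 and 6.36 at day 4, against 3.69, 4.02 and 4.06 at day 0 and Gabrb1 had 5.48, 6.44 and 6.30 at day 4, against 4.16, 3.78 and 4.48 at day 0, rises of 4.29-fold and 3.82-fold with no overlap. The other 2 that rose were Gabrg3 (0.63) and Gabrd (0.37). Among 22 glutamate receptor genes 6 rose and 3 fell, with the kainate subunit Grik3 highest at 1.45 and the AMPA subunit Gria3 lowest at -1.005. Potassium channel genes (7 higher and 2 lower of 36) and sodium and calcium channel genes (6 and 6 of 28) were called in both directions. Among all genes 17.2% were higher and 16.3% lower, and neither list was far above these shares. Kcnk1, a leak channel, rose by 1.57 and Kcnip2 by 1.42, while Kcnh7 changed by -1.09 and Cacna2d1 by -1.29. Of 44 guidance genes 16 rose and 8 fell. Sema3e had 6.59, 6.01 and 5.91 at day 4, against 4.14, 4.09 and 4.31 at day 0 and its relative Sema3a had 4.10, 4.21 and 3.99 at day 4, against 5.29, 5.82 and 5.93 at day 0. Efnb3 and the netrin receptor Unc5c rose by 1.63 and 1.43, and the semaphorin receptor Nrp2 fell by 1.15.

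Stem cell and Notch genes were lower more often than higher at day 4. Of 24 genes of neural stem cells 13 fell and 2 rose (median -0.34). Lgals1, a galectin of stem cells and matrix, had signals of 6.87, 6.91 and 6.39 at day 4, against 10.11, 10.06 and 10.25 at day 0 (10.7-fold lower). The intermediate filament gene Vim had 11.66, 11.79 and 11.66 at day 4, against 12.68, 12.64 and 12.63 at day 0 (1.93-fold lower), and Nes, another filament gene, of neural progenitors, had 6.88, 6.88 and 6.98 at day 4, against 8.48, 8.46 and 8.55 at day 0 (2.998-fold lower). All 3 were lower on every day 4 array. The growth factor receptor gene Egfr fell by 0.91, whereas Prom1 rose by 0.48 and Slc1a3 by 0.45. Sox2, Fabp7 and the RNA-binding Msi1 (8.23 at day 4 and 8.01 at day 0) did not pass. Notch components and targets were called lower in 12 and higher in 4 of 28 cases. The repressor Hes1 had 6.23, 6.44 and 6.59 at day 4, against 9.06, 8.82 and 9.06 at day 0 and Hey2 had 6.43, 6.28 and 6.27 at day 4, against 8.91, 8.57 and 8.77 at day 0, and Hes5 and Hey1 changed by -1.91 and -1.39. A dimmer probe set of Hes5 gave 0.15, so its 2 probe sets disagreed. Upstream of these, the receptor Notch1 changed by -0.74 and the ligand Jag1 by -0.74, while Dtx1, an E3 ligase of the pathway, rose by 0.75.

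Mitotic genes fell as 1 block. All 42 of the 42 measured genes of mitosis and the spindle were lower at day 4, 41 of them at least 2-fold, with a median of -2.14. Kif23, a kinesin of the midbody, had signals of 4.94, 5.35 and 5.39 at day 4, against 8.38, 8.41 and 8.55 at day 0 (9.34-fold lower). Ndc80, of the kinetochore, had 5.78, 5.90 and 6.43 at day 4, against 8.77, 9.07 and 9.23 at day 0 (7.92-fold lower), and Prc1, which bundles the central spindle, had 6.02, 6.48 and 6.52 at day 4, against 9.25, 9.43 and 9.28 at day 0 (7.9-fold lower). The highest day 4 array of each was more than 2 units under the lowest day 0 array. Aspm, Ccnb2 and Hmmr changed by -2.74, -2.73 and -2.68. The smallest change was that of Bub3, -0.27.

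DNA replication genes fell less. Of 42, 23 were lower and 0 higher, 2 at least 2-fold, with a median of -0.39, and without day 0 replicate 2 the count was 15. Rrm2, a subunit of ribonucleotide reductase, had 5.28, 5.64 and 5.57 at day 4, against 6.95, 7.04 and 7.18 at day 0 (2.94-fold lower), although its dimmer probe set, near the floor of the array, gave 0.11. Pole, whose dimmer probe set gave 0.31, and Pola1, of the polymerases, changed by -1.19 and -0.99, and Mcm2 and Mcm5, of the replicative helicase, by -0.84 and -0.70. Pcna, the polymerase clamp, was at 9.23, 9.32 and 9.30 at day 4 and 9.38, 9.48 and 9.34 at day 0 and did not pass. Among 28 genes of G1 control 11 fell and 2 rose. Falls were found in the kinase gene Cdk6 (-1.25), in E2f8 (-1.42) and in the RB family gene Rbl1 (-1.08). Inhibitors of the kinases also fell (Cdkn1a -1.38, Cdkn2c -1.30, Cdkn1b -1.12). Ccnd3 and Myc rose by 0.59 and 0.52.

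Promoters of the mitosis and replication genes are shown because all called members of both lists fell and motifs of such promoters are well known. In the replication list 19 members did not pass. Promoters were those of RefSeq (mouse GRCm38.p6), 250 bases before to 50 after each start site, and both strands were searched. The CHR letters TTTGAA, read by the DREAM and FOXM1 complexes in mitotic promoters, stood in 28 of 37 promoters of 34 matched mitosis genes (75.7%), and in 17.9% of all 32851 promoters. The letters CCAAT, bound by NF-Y, stood in 30 of the 37 (81.1%), against 37.4% of all promoters. Both were present in 25 of the 37 (67.6%), against 6.95% of all. The 250 bases before the start of Prc1 (chr7:80294226-80294475, plus strand) are given with the CHR in capitals, and those of Kif23 (chr9:61946800-61947049, minus strand) with the CCAAT box, on its reverse strand, in capitals.
Prc1: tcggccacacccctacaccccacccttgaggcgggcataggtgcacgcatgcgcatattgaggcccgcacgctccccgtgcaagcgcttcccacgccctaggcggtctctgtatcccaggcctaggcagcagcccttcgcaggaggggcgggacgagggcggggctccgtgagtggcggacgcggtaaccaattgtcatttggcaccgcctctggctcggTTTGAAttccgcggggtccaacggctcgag
Kif23: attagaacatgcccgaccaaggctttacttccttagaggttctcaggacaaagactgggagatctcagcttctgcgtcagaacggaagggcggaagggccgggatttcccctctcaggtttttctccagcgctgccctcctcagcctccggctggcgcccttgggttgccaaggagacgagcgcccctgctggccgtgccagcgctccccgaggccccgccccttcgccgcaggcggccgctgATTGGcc
The E2F letters TTTCGCGC stood in 8 of 44 promoters of 36 matched replication genes (18.2%) and in 0.323% of all promoters, and TTTGGCGC in 7 of the 44 (15.9%) and in 0.514% of all. Of the replication genes that fell and had a promoter, 4 of 19 held the first form and 5 of 19 the second. The promoter of Mcm5 (chr8:75109259-75109508, plus strand) is given with the first form in capitals.
Mcm5: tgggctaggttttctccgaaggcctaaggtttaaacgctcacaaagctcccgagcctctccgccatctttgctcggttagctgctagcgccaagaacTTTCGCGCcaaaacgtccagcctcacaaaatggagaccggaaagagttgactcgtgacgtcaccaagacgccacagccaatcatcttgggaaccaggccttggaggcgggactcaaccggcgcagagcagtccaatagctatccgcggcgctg
A match of letters is a description of the sequence and shows no binding.

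Immediate early genes included the deepest fall of all genes tested. Among 18 AP-1 transcription factor genes 11 fell and 2 rose, and among 32 other early genes 22 fell and 1 rose (medians -0.47 and -1.17). Fos had signals of 5.14, 5.0002 and 5.10 at day 4, against 10.46, 10.65 and 10.55 at day 0. It was 44.5-fold lower, a fall of 5.48 ± 0.12 (SE, adjusted p = 1.99e-14). Fosb had 5.45, 4.75 and 5.63 at day 4, against 9.08, 8.90 and 8.99 at day 0 and Jun, which stayed bright, had 8.48, 9.09 and 8.76 at day 4, against 10.90, 11.06 and 11.05 at day 0. All 3 were lower on every day 4 array. Atf3, Junb and Fosl2 changed by -1.93, -1.89 and -1.10. The small rises were those of Batf (0.31) and Mafg (0.27).

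Outside the AP-1 family, the zinc finger factor Egr1 had signals of 5.37, 5.37 and 5.43 at day 4, against 10.06, 10.13 and 9.91 at day 0 (25.04-fold lower). The orphan receptor Nr4a1 had 6.72, 6.83 and 7.21 at day 4, against 10.84, 10.82 and 10.78 at day 0 (14.9-fold lower), and Zfp36, which promotes decay of short-lived mRNAs, had 5.17, 4.79 and 4.74 at day 4, against 8.05, 8.64 and 8.32 at day 0 (10.8-fold lower). No array of one day lay among those of the other. Ier2, Nr4a3 and Klf6 changed by -2.95, -2.68 and -2.62. Rgs2 rose by 0.90, and Arc (6.79 at day 4 and 6.87 at day 0) and Npas4 (4.63 at day 4 and 5.08 at day 0), early genes of active neurons, did not pass. The CArG box, which serum response factor binds, stood in 6 of 33 promoters of early genes (18.2%, in 3 of 24 matched genes), in 0 of 20 of the AP-1 list and in 1.63% of all promoters. The CRE letters TGACGTCA stood in 1 of the 33, 1 of the 20 and 1.79% of all. Zfp36 is shown as an early gene that fell and has a CArG box, and its promoter (chr7:28379229-28379478, minus strand) is given with the box in capitals. The CRE was held by Btg2 (-0.53), whose promoter (chr1:134079156-134079405, minus strand) follows with the CRE in capitals.
Zfp36: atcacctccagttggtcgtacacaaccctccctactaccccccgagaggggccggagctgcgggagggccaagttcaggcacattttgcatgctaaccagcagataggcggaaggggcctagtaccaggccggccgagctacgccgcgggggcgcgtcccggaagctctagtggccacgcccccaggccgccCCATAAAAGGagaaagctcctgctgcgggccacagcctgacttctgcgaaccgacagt
Btg2: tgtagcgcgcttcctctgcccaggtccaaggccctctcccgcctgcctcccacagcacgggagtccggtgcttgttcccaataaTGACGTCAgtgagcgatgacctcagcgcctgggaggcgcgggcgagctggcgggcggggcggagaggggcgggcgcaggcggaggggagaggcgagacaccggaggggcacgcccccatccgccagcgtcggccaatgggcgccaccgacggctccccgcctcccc
Feedback genes of the ERK pathway were lower more often than higher. Of 26 such genes 11 fell and 5 rose. The phosphatase gene Dusp1 had 6.80, 6.21 and 6.46 at day 4, against 8.60, 8.85 and 8.96 at day 0 and the inhibitor Spry1 had 6.20, 6.16 and 6.29 at day 4, against 7.88, 8.05 and 7.73 at day 0. Ier3, Dusp5, Dusp10 and Spry4 changed by -2.20, -1.84, -1.62 and -1.003, whereas Spry3 and Dusp7 rose by 0.59 and 0.57. Etv5 (8.37 at day 4 and 8.35 at day 0), a usual target of FGF signalling, did not pass.

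**Figure D3:**
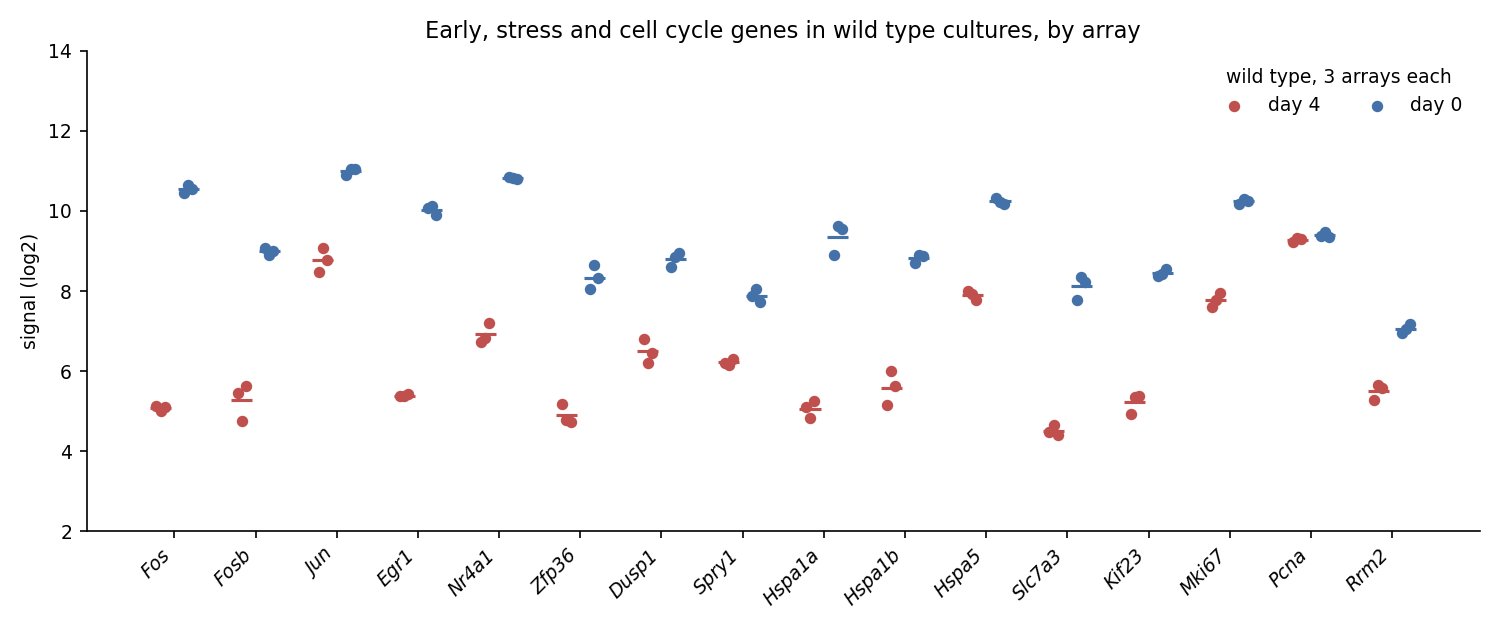
Log2 signal (vertical axis) of 16 early, stress and cell cycle genes on the 3 day 4 arrays (left in each pair) and 3 day 0 arrays (right) of wild type cultures, with bars at the means. All are lower on each day 4 array, with Fos averaging 5.08 at day 4 and 10.55 at day 0. Pcna is lower only by a little and did not pass the test.

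Heat shock genes fell in part. Of 29, 11 were lower and 3 higher (median -0.23), with 5 higher under cyclic loess and 6 with quantile normalization. Hspa1a had signals of 5.10, 4.82 and 5.25 at day 4, against 8.90, 9.62 and 9.54 at day 0 (19.6-fold lower) and its near-identical neighbour Hspa1b had 5.16, 5.99 and 5.62 at day 4, against 8.71, 8.90 and 8.87 at day 0 (9.43-fold lower), and signal of one in the probes of the other cannot be told apart. Hspb6 and Dnajb9 changed by -1.10 and -0.91. Cryab rose, as given above, and Hspa8 (11.94 at day 4 and 12.03 at day 0) and Hsp90aa1 (7.78 at day 4 and 7.97 at day 0), a constitutive HSP70 and the inducible form of HSP90, did not pass. The heat shock element, searched as GAA, TTC and GAA with 2 free bases between each, stood in 7 of 31 promoters of 25 matched heat shock genes (22.6%) and in 0.603% of all promoters. By gene, 5 of the 25 held it, and 2 of the 10 that fell and had a promoter. Hspe1, the mitochondrial chaperonin partner (-0.48), is shown as a gene that fell and has the element before its start site. Its promoter (chr1:55087898-55088147, plus strand) is given with 2 overlapping elements in capitals.
Hspe1: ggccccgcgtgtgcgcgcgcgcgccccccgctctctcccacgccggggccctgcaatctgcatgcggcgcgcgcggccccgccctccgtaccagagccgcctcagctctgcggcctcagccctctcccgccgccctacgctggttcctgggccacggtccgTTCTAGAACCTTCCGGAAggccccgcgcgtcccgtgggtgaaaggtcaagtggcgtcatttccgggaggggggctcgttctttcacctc

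Genes of the unfolded protein response and of amino acid supply fell nearly throughout. Of 42, 36 were lower and 0 higher, 12 of them at least 2-fold, with a median of -0.69. Slc7a3, a carrier of cationic amino acids, had 4.48, 4.65 and 4.41 at day 4, against 7.77, 8.36 and 8.21 at day 0 (12.1-fold lower). Hspa5, the chaperone BiP of the endoplasmic reticulum, had 7.99, 7.92 and 7.77 at day 4, against 10.33, 10.23 and 10.18 at day 0 (5.12-fold lower). The serine to glycine enzyme Shmt2 had 8.79, 9.23 and 9.17 at day 4, against 10.50, 10.75 and 10.61 at day 0 (2.95-fold lower). Day 4 arrays lay under day 0 arrays without overlap for all 3. Ddit3, Asns, which makes asparagine, and Ppp1r15a changed by -1.48, -1.45 and -1.33. Atf4 (9.16 at day 4 and 9.41 at day 0), the factor that drives the amino acid response, did not pass, though it did with the 50th percentile filter, trended robust variance or array weights.

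In energy metabolism, hypoxia and glycolysis genes were lower more often than higher, and few respiratory chain genes were called. Of 32 hypoxia and glycolysis genes 16 were lower and 5 higher (median -0.52), and 2 were higher without day 0 replicate 1 or 3 or day 4 replicate 1 or 2, or 3 without day 4 replicate 3. Vegfa, the vascular growth factor, had 7.998, 8.34 and 8.16 at day 4, against 9.76, 10.61 and 10.24 at day 0 and Adm, which encodes adrenomedullin, had 4.54, 4.34 and 4.76 at day 4, against 6.37, 6.77 and 6.75 at day 0, falls of 4.11-fold and 4.23-fold with no overlap. Ero1a, Ldha, Slc2a3 and Tpi1 changed by -1.69, -1.44, -1.37 and -1.37, while Aldoc, an astrocyte aldolase, rose by 0.76 and Slc2a1, the glucose carrier of glia, by 0.51. Gapdh (12.62 at day 4 and 12.63 at day 0) did not pass. Of 44 nuclear genes of oxidative phosphorylation 3 rose and 3 fell, fewer than the share of all genes, and with quantile normalization 12 rose and 0 fell, with cyclic loess 7 and 2. The 30 ribosomal protein genes had 17 lower and 1 higher, with a median of -0.31 and none changed 2-fold; several have processed copies in the genome that share sequence. Rpl7 changed by -0.69, but its dimmer probe set gave 0.48 and the mean of both -0.11, which did not pass. Rps24 fell by 0.66.

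Cholesterol and fatty acid genes were higher more often than lower, with changes under 2-fold. The cholesterol list of 26 had 13 members higher and 1 lower (median 0.40). The synthase Lss had 8.66, 8.61 and 8.64 at day 4, against 7.57, 8.10 and 7.54 at day 0 and Mvd had 8.53, 8.55 and 8.33 at day 4, against 7.44, 7.80 and 7.70 at day 0. The day 4 arrays of both lay above day 0, but the call of Lss was lost without day 0 replicate 1 or 3. Insig1, which holds the pathway back when sterol is ample, fell by 0.97. Without day 0 replicate 1, and likewise without day 0 replicate 3, 6 of these genes were called higher. The 26 fatty acid genes had 9 higher and 2 lower, with Fasn at 0.61 and Scd1 at 0.60. The 26 redox and metal genes had 14 higher and 1 lower (median 0.30). Mt3, the metallothionein of the brain, had 11.33, 11.31 and 11.25 at day 4, against 9.67, 9.72 and 9.81 at day 0 (2.96-fold higher), and Gstm1, Gsta4 and Gclc, of glutathione metabolism, rose by 1.29, 1.12 and 1.07. The ferritin chain Fth1 rose by 1.003, and Gpx3, the secreted peroxidase, fell by 1.48.

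Adhesion and matrix genes were lower more often than higher, other than collagens. Of 28 integrin and laminin genes 14 were lower and 5 higher (median -0.38), and of 35 other matrix genes 14 were lower and 5 higher. The higher count was 3 among integrins and laminins without day 0 replicate 1 or day 4 replicate 1. Among matrix genes it was 3 without day 0 replicate 3 and 9 with quantile normalization. Fbln2, a fibulin of basement membranes, had signals of 5.57, 5.52 and 5.70 at day 4, against 9.45, 9.79 and 9.36 at day 0 (15.3-fold lower). The integrin chain Itga2 had 6.78, 6.93 and 7.03 at day 4, against 8.60, 8.52 and 8.67 at day 0 and Itga7, a laminin receptor, had 6.55, 6.73 and 6.72 at day 4, against 8.10, 8.35 and 8.04 at day 0. None of these overlapped between the days. Nid1 changed by -1.28, Adamts1 by -2.32, the fibronectin gene Fn1 by -1.78 and the elastic fibre gene Fbln5 by -1.30. Itgb5 rose by 0.91, and so did Timp2 (0.85), an inhibitor of matrix proteases. Among 32 genes of the contractile and cortical actin skeleton 12 fell and 4 rose, 2 without any one of the day 0 replicates, with S100a10 (-2.19), Tagln2 (-1.88) and Cav1 (-1.30) lowest. Collagen genes were called higher in 9 and lower in 3 of 33 cases, or 7 and 5 with cyclic loess, with 5 higher without day 0 replicate 1, day 0 replicate 2 or day 4 replicate 1. Col12a1 fell by 0.98.

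Growth factor genes changed in both directions. Of 37, 15 rose and 7 fell (median 0.21). Pdgfrb, the receptor of PDGF-BB, had signals of 7.28, 7.72 and 7.44 at day 4, against 5.55, 5.29 and 5.42 at day 0 (4.17-fold higher). This receptor also marks pericytes, whose part in the rise was not tested. The neuregulin co-receptor Erbb3 had 6.99, 6.84 and 6.54 at day 4, against 4.89, 4.77 and 5.04 at day 0 (3.69-fold higher). Fgf12 and Pdgfa rose by 1.76 and 1.03. Egfr, receptor of the EGF on which neurospheres are commonly grown, had 10.33, 10.22 and 10.12 at day 4, against 11.25, 10.997 and 11.14 at day 0 (1.88-fold lower). Igfbp5 and Igfbp4, binding proteins of insulin-like growth factors, changed by -1.64 and -1.496. In the BMP list Gdf11 rose by 1.10 and Smad7 by 0.98, while Id3 and Id1, targets of BMP, changed by -1.42 and -1.14; in all 6 rose and 5 fell of 27. In the Wnt list 8 rose and 9 fell of 37, and 4 rose without day 0 replicate 3 or day 4 replicate 1, or 5 without day 4 replicate 2. The secreted antagonist Sfrp4 had 4.03, 4.23 and 4.0004 at day 4, against 6.62, 6.37 and 6.16 at day 0 and the membrane inhibitor Apcdd1 had 7.41, 7.33 and 6.47 at day 4, against 9.45, 9.19 and 9.27 at day 0, both without overlap. Axin2, a common readout of Wnt signalling, fell by 0.28, but its dimmer probe set gave 0.52. The counts of these lists stand beside 17.2% higher and 16.3% lower of all genes.

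Transcription and chromatin regulators changed in both directions. Of 33 nuclear receptor and hormone-response genes 8 rose and 5 fell. The thyroid hormone receptors Thrb and Thra rose by 1.02 and 0.84, Sgk1 rose by 0.92, and the retinoic acid receptor Rarb had 5.68, 5.33 and 4.79 at day 4, against 6.87, 6.96 and 7.07 at day 0. The 16 clock genes had 9 lower and 0 higher, with Bhlhe40 at -2.46, Per1 at -1.90 and Nr1d1 at -1.31; Arntl (9.06 at day 4 and 9.15 at day 0) did not pass. Of 34 chromatin genes 12 fell and 4 rose, 2 without day 4 replicate 2. Hmgb2, an HMG protein of dividing cells, changed by -1.87 and the Polycomb genes Suz12 and Ezh2 by -0.88 and -0.74, while Hdac11 rose by 0.78. SOX genes fell in 6 of 18 cases, 3 with cyclic loess or without day 0 replicate 3 or day 4 replicate 2, with Sox5 (-0.81) and Sox11 (-0.63) lowest and Sox10 highest. Of 22 targets of p53 12 fell and 4 rose, with Plk2 (-1.55) lowest and Plk3 (0.75) highest, and 7 fell without day 0 replicate 2. Of 36 genes of regional identity 9 were higher and 5 lower, with 4 higher under cyclic loess and 3 to 5 without 1 wild type array. Of 27 interferon genes 5 were lower and 1 higher, with 8 lower under cyclic loess. For all of these lists the shares of all genes were 17.2% higher and 16.3% lower.

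**Figure D4:**
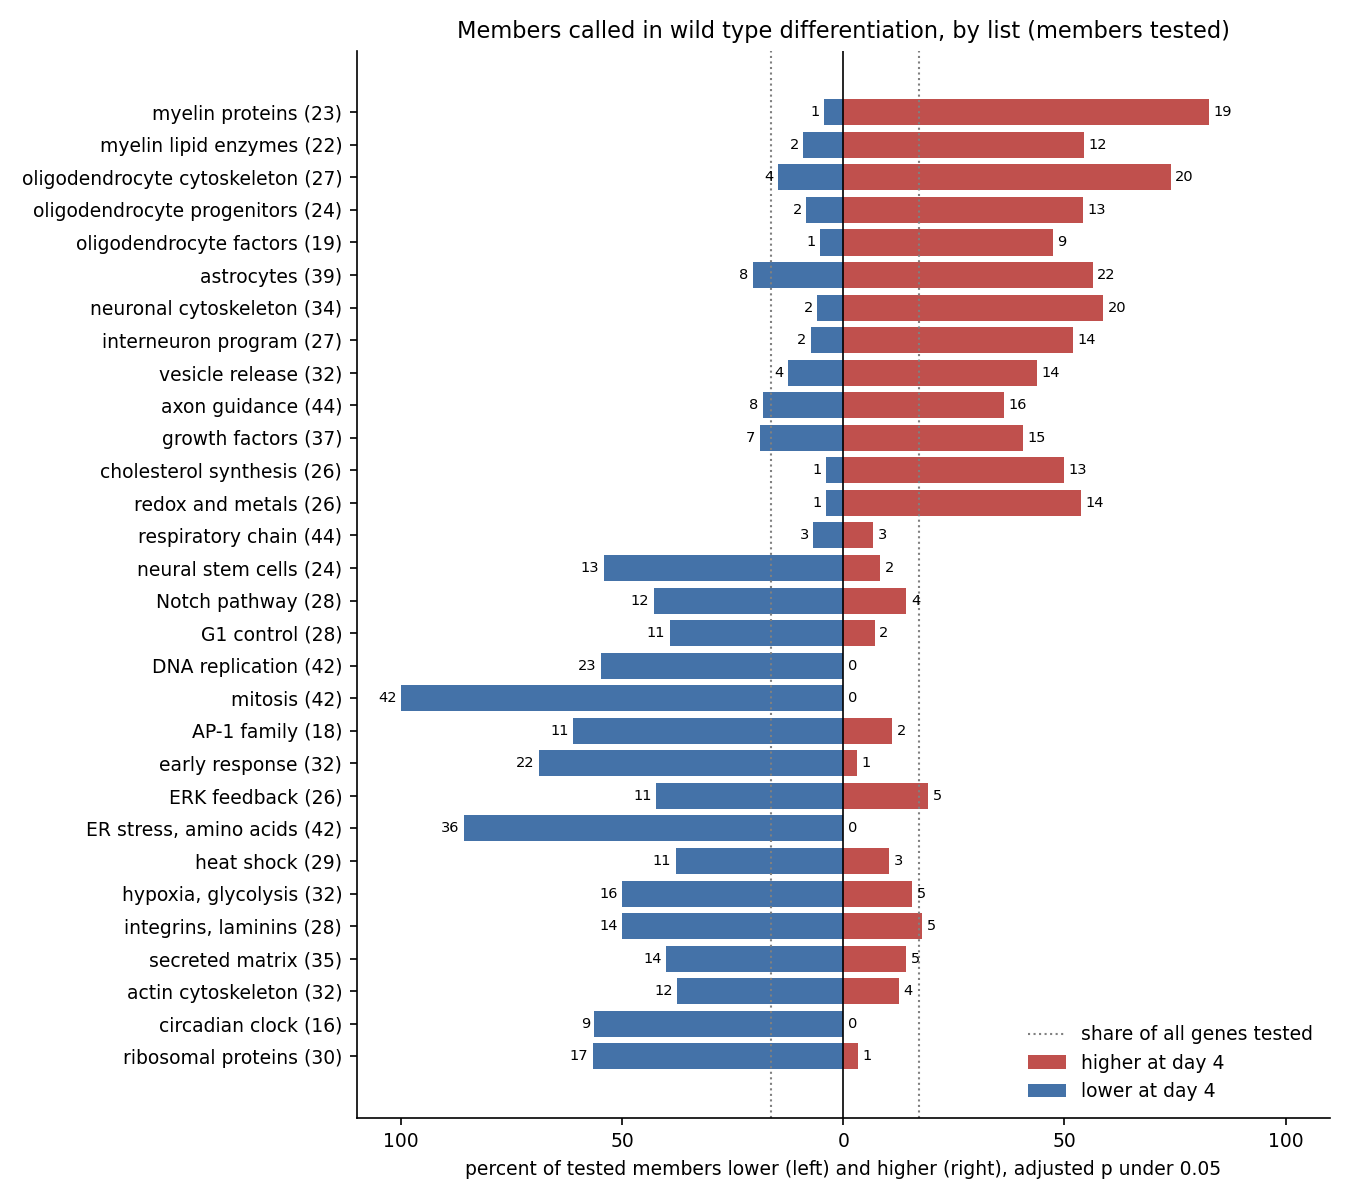
Share of the tested members of 30 gene lists (number tested in parentheses) called lower (left) and higher (right) at day 4 in wild type cultures, with the number called at the end of each bar. Dotted lines mark the shares of all genes, 16.3% lower and 17.2% higher. Mitosis, at 42 of 42, and the endoplasmic reticulum stress list, at 36 of 42, reach furthest left, and myelin proteins, at 19 of 23, furthest right.

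MicroRNA genes were examined after their values were seen. The probe sets read the hairpin or host transcript and not the mature RNA. Of 281 tested, 42 were higher and 20 lower, and 229 had a mean signal under 6. Neither count stood above the shares of all genes, 17.2% higher and 16.3% lower. Among all genes with a mean signal under 6, 15.3% were higher and 5.26% lower. Mir219a-2, the hairpin of a microRNA that promotes oligodendrocyte maturation in mouse, had signals of 7.16, 7.23 and 7.02 at day 4, against 5.54, 5.60 and 5.63 at day 0, a rise of 1.55 ± 0.26 (SE, adjusted p = 2.41e-04). In knockout and mosaic cultures it changed by 1.57 and 2.16. Mir181d had 8.31, 7.95 and 8.22 at day 4, against 7.65, 6.99 and 7.03 at day 0 in the wild type, with changes of -0.17 and 0.08 in knockout and mosaic cultures. These did not differ from the wild type at the threshold (adjusted p = 0.234 for knockout and 0.281 for mosaic, limma). Mir181b-2 was dimmer, at 4.67, 5.05 and 5.26 at day 4, against 4.29, 4.45 and 4.07 at day 0, and its call was lost without day 0 replicate 3 or day 4 replicate 3. Mir18, on chromosome 14, rose by 0.91. The largest change among the called microRNA genes was a fall, that of Mir1931 by 2.50 (adjusted p = 2.13e-07, limma). In knockout and mosaic cultures Mir1931 changed by -1.905 and -1.84. Mir677, Mirlet7c-1 and Mir5125 changed by -1.59, -1.32 and -1.28 in the wild type. Mature sequences of RefSeq (GRCm38.p6) were known for 55 of the 62 called genes. Those of Mir219a-2, Mir181b-2, Mir181d and Mir18, which all rose, are shown with the seed, bases 2 to 8, in capitals.
miR-219a-5p: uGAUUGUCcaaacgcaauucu
miR-181b-5p: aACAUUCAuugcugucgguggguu
miR-181d-5p: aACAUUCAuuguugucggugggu
miR-18a-5p: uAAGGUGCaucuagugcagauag
The 2 microRNAs of the miR-181 family share 1 seed, and the others have a seed each.

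Some of the largest changes lay outside these lists. Tmem163, a zinc transporter of vesicles, had signals of 9.84, 10.05 and 9.83 at day 4, against 7.20, 6.99 and 7.05 at day 0 (7.1-fold higher), and Apod, a lipocalin that glia secrete, had 7.13, 6.97 and 6.49 at day 4, against 4.48, 4.04 and 4.02 at day 0 (6.42-fold higher). Moxd1, a relative of dopamine hydroxylase, had 5.91, 6.55 and 6.52 at day 4, against 10.61, 10.74 and 10.84 at day 0 (21.2-fold lower). Car3, a cytosolic carbonic anhydrase, had 5.40, 5.78 and 5.52 at day 4, against 8.84, 8.93 and 8.82 at day 0 (9.83-fold lower). All 4 were picked from called genes without overlap between the days, so the lack of overlap was a condition of the choice. Of all genes tested 48.9% did not overlap. A dimmer probe set of Car3 also was lower, by 2.10.

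Markers of cells that a neurosphere culture is not meant to hold differed in level. The median signal was 4.48 to 4.76 at day 4 and 4.62 to 4.67 at day 0 for 14 microglial genes, and 4.56 to 4.60 and 4.33 to 4.44 for 11 endothelial genes. For 13 genes of pericytes, muscle and fibroblasts it was 4.98 to 5.27 at day 4 and 4.69 to 4.85 at day 0. Of these lists 2, 1 and 2 genes were called higher, among them Pdgfrb, and 1, 0 and 0 lower. With cyclic loess the microglial and endothelial lists had 0 higher, and the microglial list 2 lower. Pdgfrb, the bright member of the third list, is described above. Rgs5 of pericytes averaged 4.04 at day 4 and 3.79 at day 0, and Des of muscle cells 4.57 at day 4 and 4.46 at day 0. The endothelial gene Cldn5 averaged 4.38 at day 4 and 4.40 at day 0, and Aif1 of microglia 4.45 at day 4 and 4.46 at day 0, and none of these 4 passed. Ependymal and choroid plexus genes were called higher in 3 of 16 and 3 of 6 cases, against 17.2% of all genes. Their medians were 0.27 and 0.32, at signals that are mostly under 6. The 7 Schwann cell genes were brighter, with median signals of 5.51 to 5.83 at day 4 and 6.16 to 6.57 at day 0, and 2 fell, Egr2 with -2.39 and Cdh19 with -1.33. In total RNA, more cells of a type and more RNA per cell cannot be told apart, and this holds for each group above.

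Differentiation of the other cultures gave a like picture for the genes that changed most. Of the 6386 genes called in the wild type, 3958 were also called in the knockout in the same direction and 3716 in the mosaic, 3384 in both, while 8 and 7 were called in the opposite direction. The cultures share no arrays, and across genes, which are not independent, r of the log2 fold changes was 0.859 with knockout and 0.842 with mosaic cultures. Mobp changed by 4.62 in knockout, 5.21 in mosaic and 4.97 in wild type cultures. Mag changed by 4.79, 5.50 and 4.88 in the same order, and Fos by -5.43, -5.19 and -5.48. Hspa1b changed by -4.15 in knockout and -3.24 in wild type cultures, a difference of -0.91 ± 0.55 (SE, adjusted p = 0.617 in limma). Medians of the mitosis list were -2.34, -2.005 and -2.14, and those of the myelin protein list 0.97, 1.47 and 1.01. Some lists with median signals under 6 did not keep their wild type median. In the same order, interneuron genes had 0.08, 0.10 and 0.35, collagens -0.07, -0.12 and 0.20, and GABA-A receptors -0.03, -0.01 and 0.16. Interferon genes, also dim, had -0.15, -0.16 and -0.20.

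A test of the difference itself called 0 of 19016 genes (0%) between knockout and wild type differentiation and 0 (0%) between mosaic and wild type, at an adjusted p under 0.05 in limma. At an unadjusted p under 0.05 there were 1809 and 2354. Other settings called at most 2 genes. The genes called were Gm21370, Flrt1 and Zfp972. Gm21370, a predicted gene, had a knockout minus wild type difference of -0.98 with quantile normalization (adjusted p = 0.0369, limma). With a filter at the 50th percentile it was -0.95 (adjusted p = 0.0299). For Flrt1 the knockout minus wild type difference was 1.23 without knockout day 0 replicate 1 (adjusted p = 0.0164, limma). Zfp972 had a mosaic minus wild type difference of 1.77 with trended robust variance (adjusted p = 0.0479, limma). Without wild type day 4 replicate 3 it was 1.99 (adjusted p = 0.0332). With 3 arrays per group the number of arrays limits what these tests can show.

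**Figure D5:**
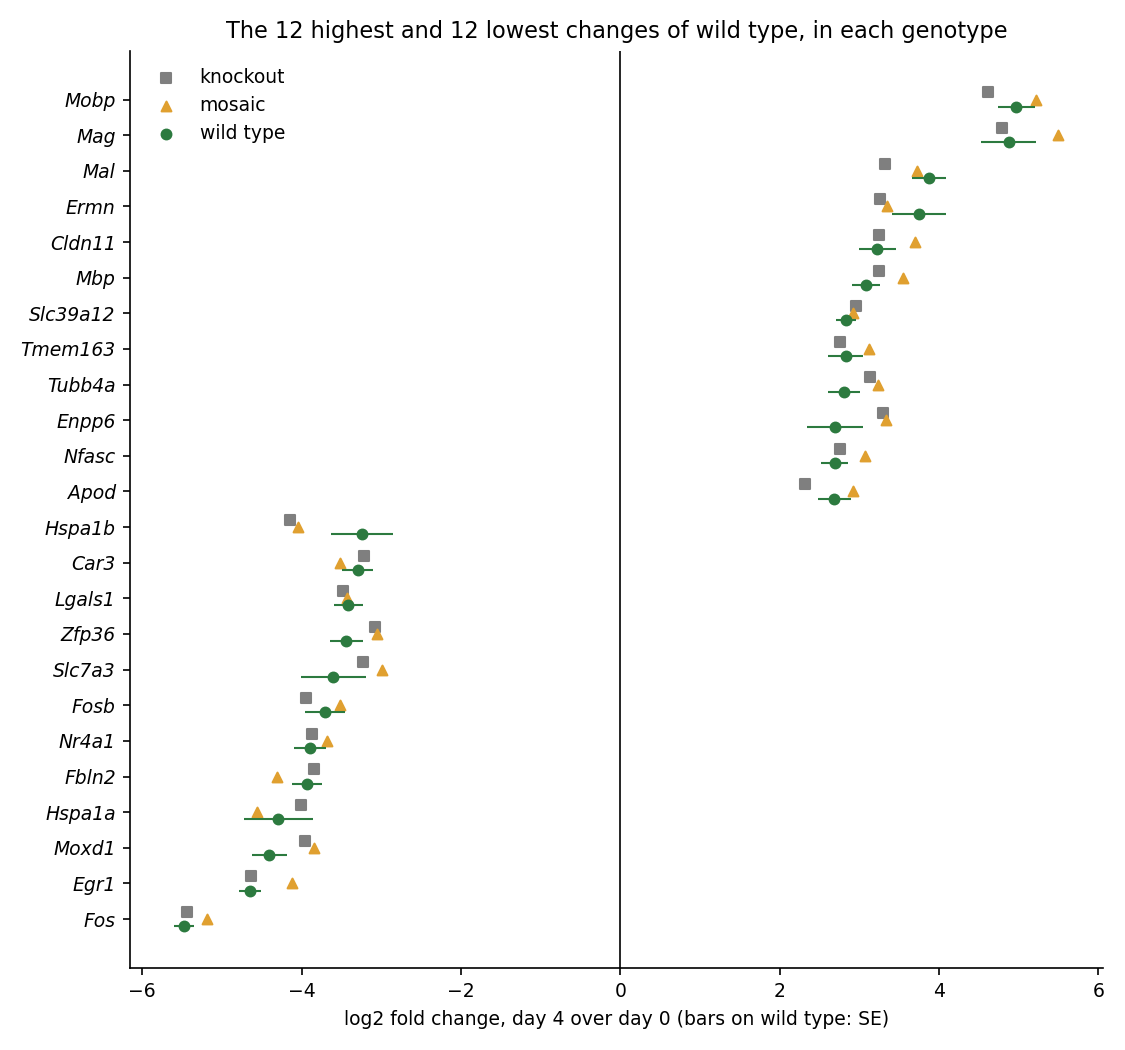
Log2 fold change of day 4 over day 0 (horizontal axis) for the 12 genes that rose most and the 12 that fell most in wild type cultures, with knockout, mosaic and wild type values side by side and SE bars on wild type. Each of the 24 genes changes in the same direction in all 3 genotypes.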

How the data were processed

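Total RNA of 18 cultures (knockout, mosaic and wild type, at day 4 and day 0, 3 each) was hybridised to Affymetrix mouse gene arrays. The deposited values are log2 signals per probe set, already normalized by the authors; the sources used here do not name the background correction or the normalization method, and the log2 scale was read from the range of the values. Of 41345 probe sets, 23521 had 1 gene symbol in the platform annotation, 1814 several and 16010 none. For a gene with several such probe sets the brightest on average across all 18 arrays was used, which gave 22180 genes. Genes above the 25th percentile of the array on at least 3 arrays were kept (19016). Group means of 6 groups were fitted with limma 3.58.1 in R 4.3.3 (lmFit, eBayes), p-values were adjusted by Benjamini-Hochberg over all genes tested, and an adjusted p under 0.05 was called. SE are from that fit. The fit was tested on simulated data.

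The gene lists, and the genes named, were chosen with earlier results of these data known. Named genes are the 12 highest and 12 lowest changes without overlap, up to 6 called members of a list in each direction by size, members that define a list but did not pass, Pcdh19, and genes whose promoters are shown. MicroRNAs, Gm21370, Flrt1, Zfp972 and genes used as markers of other cells were chosen after their values were seen. Of called genes with several probe sets (407), 134 had probe sets of opposite sign. Deviations of same-numbered wild type day 4 and day 0 arrays from their group means correlated at 0.079, 0.044 and 0.070. Those of differently numbered wild type arrays correlated at -0.058 to -0.009. Same-numbered arrays had 0.164, 0.060 and 0.110 in knockout and 0.049, 0.050 and 0.015 in mosaic cultures, so they were slightly more alike. The main fit did not pair them, and a fit with the number as a block called 6328 genes. Alternatives were quantile, median and cyclic loess normalization, other filters, the mean of probe sets, a replicate block, other variance models, array weights, stricter thresholds, wild type arrays alone and leaving out each array. Depth does not apply to arrays, and their number limits the precision.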

Additional observations from a re-analysis of the deposited data

Results flagged for a closer look

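Gm21370, a predicted gene, moved in opposite directions in the 2 genotypes with every array of day 4 on 1 side of every array of day 0. It changed by -0.38 in knockout cultures and by 0.57 in wild type cultures, a difference of -0.95 ± 0.14 (SE) with an adjusted p of 0.066 in limma.

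Probe sets outside the 1-symbol rule also changed in wild type differentiation when fitted in the same way. Of 1425 probe sets with several symbols 103 were higher and 185 lower at day 4. Of 11820 with no listed symbol 478 were higher and 1465 lower.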

How the results depend on the processing

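Thresholds moved the counts most. An adjusted p under 0.01 left 4046 genes, 1817 of them higher, and a minimum change of 1.5-fold left 679, 220 higher and 459 lower. Quantile normalization gave 4091 higher and 2556 lower (61.5% higher, against 51.4%), and shifting arrays to a common median 2651 and 3285. With 1 array left out, 5038 to 6550 genes were called, 2478 to 3378 higher and 2560 to 3172 lower. With the replicate number as a block 6328 genes were called (3258 higher and 3070 lower), 6112 of them called in the same direction without it, and no call of a named gene changed. Genes with a knockout against wild type difference numbered 1 with quantile normalization, with the 50th percentile filter and with cyclic loess, and 0 to 2 with 1 array left out. For mosaic against wild type the count was 1 with trended robust variance and 0 to 1 with 1 array left out.

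Values that changed sign belonged to genes near 0 or with probe sets that disagree. Quantile normalization gave 0.0233 for Arc and 0.0447 for Gapdh, the common median -0.0124 for Etv5 and -0.0327 for Fabp7, and cyclic loess -0.0163 for Des, 0.0217 for Gapdh and 0.0448 for Map2. The mean of probe sets gave 0.1205 for Axin2 and 0.0991 for Hspa8. With 1 array left out, values ranged over -0.0794 to 0.0515 for Aif1, -0.236 to 0.133 for Arc, -0.134 to 0.061 for Cldn5, -0.0527 to 0.13 for Etv5, -0.0152 to 0.0222 for Fabp7, -0.0564 to 0.0476 for Gapdh and -0.043 to 0.011 for Map2. Calls of Axin2, Batf, Bub3, Cd9, Gabrd, Galc, Mafg, Rpl7 and Slc2a1 were each lost under at least 1 setting other than leaving an array out, and those of Btg2, Eif2s3y, Elavl4, Lss, Mir181b-2 and Prom1 only with an array left out. Atf4, Cspg4, Gjb1, Msi1, Npas4 and Sox2 passed under at least 1 setting. Cyclic loess also moved the lower counts of oligodendrocyte progenitor and fatty acid genes from 2 to 1 and of myelin proteins from 1 to 0, and the higher count of AP-1 genes from 2 to 1. The cause was not tested.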
